A study of Mus musculus with 18 samples.

Results

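Control embryoid bodies of mouse embryonic stem cells were followed from day 2 to day 4 of differentiation, and the day 4 samples (n = 3) were compared with the day 2 samples (n = 3), 6 of the 18 samples of the series. The members were chosen by their labels, control treatment at day 4 or at day 2, and 3 control samples of day 3 were used to place each change within the course. All samples came from the i-Mixl1 embryonic stem cell line, which is named for the homeobox gene Mixl1 and in which DOX (doxycycline) is the added agent. Control cultures received no DOX, so they show the differentiation of this line as it runs without the agent. The other 9 samples, 3 for each day, were embryoid bodies given DOX at 0.1 ug/ml, added 1 day after plating. The labels describe 1 line and give no independent line beside it, and no probe of the array was named Mixl1, so leaking of the inducible gene in controls was not analysed here.

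When embryonic stem cells are allowed to aggregate without the factors that hold them pluripotent, they form embryoid bodies that repeat some steps of early development. Cells first leave the naive state, in which genes of the inner cell mass and several germline genes are active, and pass through a state like the epiblast. Some of them then express genes of the primitive streak, the structure through which mesoderm and endoderm arise, and later genes of separate mesodermal lineages, under BMP, Wnt and Nodal signals.

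RNA of each control sample shared an array with the DOX sample of the same day and number, on spotted cDNA clones, and each day had 3 arrays of its own, so day and array cannot be told apart. The deposited value table puts the control samples in the green scanner channel. Every value called control below is from that channel. The dyes in the labels, Cy5 for controls and Cy3 for DOX, would put the controls in the red channel. Which is right was not settled, so the change from day 2 to day 4 in the red channel is given where a call is lost, gained or turns there. The counts of the red channel stand at the end. For the steps between single days its differences are given for some genes, without a test. The median intensity of the 9 control samples ran from 252 to 491, and 62.0 to 70.1% of gene probes had a signal-to-noise ratio of 1.4 or more, the limit used here for a probe above background. Across probes, which are not independent of each other, Pearson's r was 0.964 to 0.983 for control samples sharing a day. It was 0.947 to 0.977 for control samples of unlike days. On the first principal component, with 35% of the variance, the day 2 samples lay at -29.9 to -27.9, the day 3 samples at -20.1 to -1.57 and the day 4 samples at 34 to 41.2, so no 2 days overlapped. The 3 samples of a day are biological replicates per the labels, and their number limits the precision of every value. RNA was measured in bulk, so that fewer cells of a type and less RNA per cell cannot be told apart.

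The comparison of day 4 with day 2 asked which genes changed over the whole course. Of 15064 probes tested, 440 were higher and 479 lower at day 4 (6.10% in all), at an adjusted p under 0.05 by limma. Of 5054 named genes, each taken by its brightest probe, 205 rose (4.06%) and 214 fell (4.23%), and the median log2 difference over all genes was -0.02. Each list count below is to be read against these shares. Fewer genes passed between single days. Between day 3 and day 2, 22 genes rose (0.435%) and 29 fell (0.574%), out of 113 probes past the test (0.750%). Between day 4 and day 3, 87 genes rose (1.72%) and 77 fell (1.52%), out of 325 probes (2.16%). These 3 comparisons share samples, so their counts are not independent of each other. Of the 205 risen genes 16 also passed between day 3 and day 2, 80 between day 4 and day 3, and 111 in neither step. Of the 214 fallen genes these counts were 29, 63 and 128. The median log2 difference of the risen genes was 0.437 in the first step and 0.915 in the second. For the fallen genes it was -0.407 and -0.792. The count of day 4 against day 2, 919 probes with all samples, was 529 without replicate 1 of day 2, 582 without replicate 3 of day 2, 554 without replicate 2 of day 4 and 533 without replicate 3 of day 4. The count of day 3 against day 2 was 48, 74 and 55 without replicates 1, 2 and 3 of day 2, and 73 and 63 without replicates 1 and 3 of day 3. That of day 4 against day 3 was 203 without replicate 3 of day 3, and 199 and 174 without replicates 2 and 3 of day 4.

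**Figure D1:**
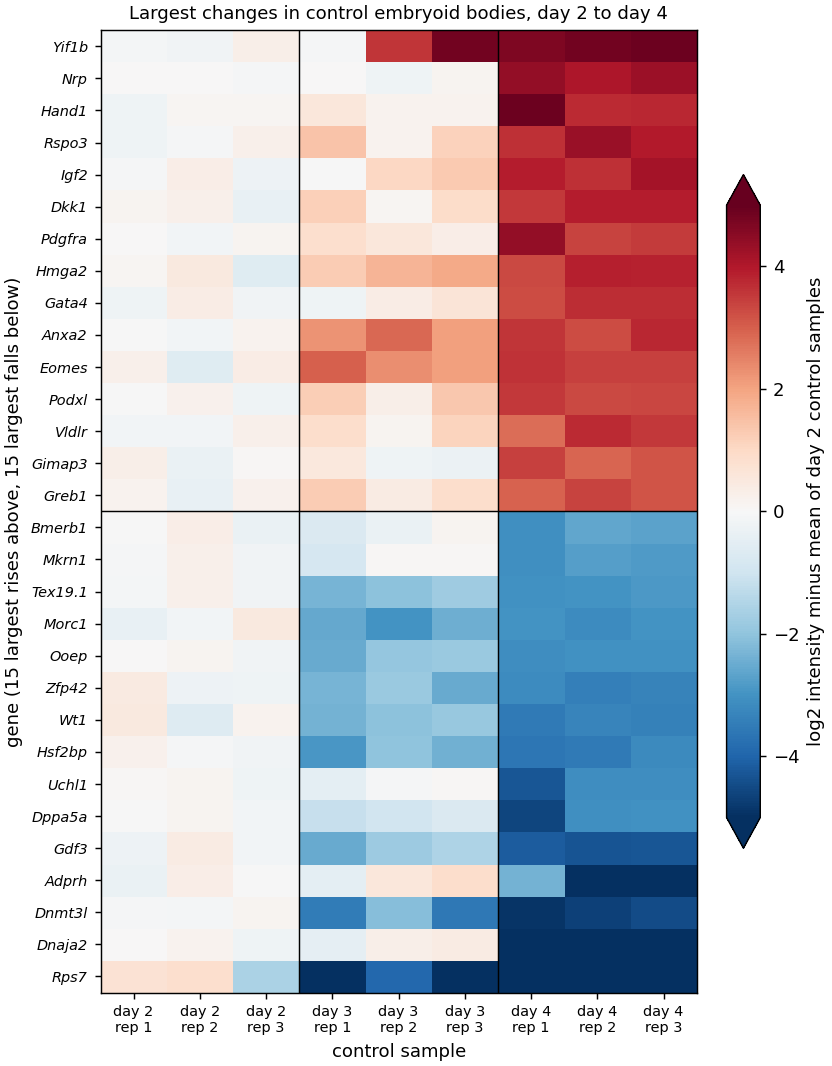
Log2 intensity of each of the 9 control samples (columns, day 2 to day 4) minus the mean of the day 2 samples, for the 15 genes with the largest rise and the 15 with the largest fall among genes past the test (rows). Most rises are dark only in the day 4 columns, while Dnmt3l, Gdf3, Zfp42 and the germline genes are already blue at day 3.

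Genes of the naive state and of the germline were among the largest falls, and several were already lower at day 3. Zfp42, which encodes the zinc finger protein Rex1 and is a standard mark of naive cells, had log2 intensities of 11.07, 10.38 and 10.43 on day 2, 8.29, 8.78 and 8.1 on day 3, and 7.5, 7.19 and 7.29 on day 4. The 3 days did not overlap. All day 4 arrays left the probe below the background limit, and day 4 was at least 9.83-fold lower than day 2 (adjusted p = 8.39e-05). Such a bound compares the bright day with the higher of the dim day's own value and the lowest signal above background, array by array. The step between day 3 and day 2 alone was -2.24 ± 0.24 in log2 units (SE, adjusted p = 0.0041), and that between day 4 and day 3 was -1.06 (adjusted p = 0.0601).

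Dnmt3l, the cofactor without catalytic activity that aids de novo DNA methylation in germ cells and stem cells, had 11.46, 11.44 and 11.67 on day 2, 8.03, 9.39 and 7.95 on day 3, and 6.64, 6.84 and 7.07 on day 4. All day 3 values were below all day 2 values, by -3.06 ± 0.34 (adjusted p = 0.00494), and the whole fall was at least 25.5-fold (adjusted p = 9.38e-05). Dppa3, which encodes the maternal factor Stella, fell 5.18-fold (7.42, 7.43 and 7.46 on day 4, against 9.2, 10.33 and 9.9 on day 2; adjusted p = 0.000688). At day 3 it had 8.0, 8.12 and 8.3. Its difference of -1.67 from day 2 (adjusted p = 0.0199) was lost in 4 of the 9 fits with 1 sample left out, with adjusted p up to 0.107 without replicate 3 of day 2. Gdf3, a ligand of the TGF-beta family made by pluripotent cells, had 10.51, 11.15 and 10.61 on day 2, 8.24, 8.93 and 9.22 on day 3, and 6.58, 6.43 and 6.47 on day 4, a fall of at least 18.9-fold (adjusted p = 4.36e-05). Each of its steps passed, with -1.96 between day 3 and day 2 (adjusted p = 0.0111) and -2.3 between day 4 and day 3 (adjusted p = 0.002).

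Several germline genes fell too. Ooep, part of the maternal complex under the cortex of the oocyte, had 6.62, 6.7 and 6.71 on day 4, against 9.73, 9.87 and 9.55 on day 2, a fall of at least 8.24-fold (adjusted p = 4.36e-05). Tex19.1, which restrains transposons in germ cells, had 9.85, 10.22 and 9.79 on day 2, 7.63, 7.91 and 8.19 on day 3, and 6.92, 6.95 and 7.08 on day 4, a fall of 7.82-fold (adjusted p = 4.36e-05). Morc1, needed for transposon silencing in male germ cells, fell at least 8.22-fold (adjusted p = 0.000108), and a dimmer Morc1 probe fell too (log2 -0.81, adjusted p = 0.0142). Hsf2bp, a factor of meiotic recombination, had 10.72, 10.43 and 10.32 on day 2, 7.58, 8.5 and 8.09 on day 3, and 6.87, 6.96 and 7.29 on day 4, and its day 4 and day 2 values differed by -3.45 ± 0.24 (adjusted p = 6.97e-05). For these 4 genes the difference between day 3 and day 2 was -2.11, -2.04, -2.67 and -2.44 in that order, and each passed the test. Tcstv1, named for its transcripts in two-cell embryos and stem cells, was lowest at day 3, with 10.06, 9.61 and 10.02 on day 2, 7.1, 7.26 and 7.25 on day 3, and 7.97, 7.9 and 7.96 on day 4. In the list of germ cell and two-cell genes, 1 of 12 measured members rose and 4 fell, against 4.06% and 4.23% of all genes, with a median log2 difference of -0.33. Kit, the receptor of stem cell factor, was the member that rose (1.0, adjusted p = 0.0153). Its adjusted p was 0.0654 without replicate 2 of day 4 and 0.0613 in the red channel. In the list of naive and general pluripotency genes, 1 of 18 measured members rose and 5 fell, against the same shares, with a median log2 difference of -0.09. Its falling members were Gdf3, Dppa5a, Zfp42, Dppa3 and Mybl2, a cell cycle factor, and its rising member was Tbx3.

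The promoters of the falling genes are shown for their sequence features, from 250 bases before to 50 bases after the start of the gene, as RefSeq gives them on GRCm38.p6. Searched on both strands were the octamer ATGCAAAT, which POU factors such as Oct4 are known to bind, the E-box CACGTG, and GCGGGAA, a form of the E2F site. Of the 15 largest falls, 9 had a promoter in the table, and 1 held each motif: Zfp42 the octamer, Dnmt3l the E-box in 1 of its promoters and Hsf2bp the E2F form. Of the 15 largest rises, 10 had a promoter, of which 0 held the octamer, 0 the E-box and 2, Hmga2 and Yif1b, the E2F form. Of all 32851 promoters, 1.74%, 7.15% and 4.60% held the octamer, the E-box and the E2F form. In the Zfp42 sequence (chr8:43306960-43307259, minus strand) capitals mark the octamer, read on the opposite strand and starting 186 bases before the gene. The Hsf2bp sequence (chr17:32034459-32034758, minus strand) has the E2F form in capitals, also on the opposite strand, starting 50 bases before the gene. A match is a description of the letters and not a bound site.
Zfp42: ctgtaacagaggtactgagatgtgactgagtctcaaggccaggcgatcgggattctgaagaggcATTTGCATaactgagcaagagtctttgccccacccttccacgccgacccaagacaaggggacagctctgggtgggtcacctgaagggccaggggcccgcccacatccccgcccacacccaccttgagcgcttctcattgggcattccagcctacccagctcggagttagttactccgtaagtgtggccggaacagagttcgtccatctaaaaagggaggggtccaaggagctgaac
Hsf2bp: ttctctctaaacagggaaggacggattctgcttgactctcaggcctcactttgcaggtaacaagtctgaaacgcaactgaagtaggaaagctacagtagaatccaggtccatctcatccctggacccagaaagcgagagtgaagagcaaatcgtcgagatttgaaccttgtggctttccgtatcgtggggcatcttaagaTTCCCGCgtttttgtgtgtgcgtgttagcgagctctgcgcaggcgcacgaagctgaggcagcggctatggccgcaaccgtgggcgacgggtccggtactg

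Other genes of stem cells fell later or did not pass. Pou5f1, which encodes Oct4, had 12.73, 12.3 and 13.09 on day 2, 12.74, 13.03 and 13.25 on day 3, and 12.03, 11.87 and 12.3 on day 4. The day 4 values were below all day 3 values but overlapped day 2, and the difference of -0.64 ± 0.23 from day 2 did not pass (adjusted p = 0.168). In the red channel it was -2.32 and passed (adjusted p = 0.000235). Tdgf1, the Nodal co-receptor Cripto, differed by 0.69 (adjusted p = 0.479) in the control channel and by -1.66 in the red channel, so its direction is unsettled. Dppa5a, an RNA-binding protein of pluripotent cells, had 13.95, 14.13 and 13.85 on day 2, 12.82, 13.02 and 13.25 on day 3, and 9.41, 10.9 and 10.97 on day 4. It fell 11.7-fold (adjusted p = 0.000625), and its other probe fell by 3.47 (adjusted p = 9.43e-05). The step between day 4 and day 3 passed (-2.61, adjusted p = 0.00683) and that between day 3 and day 2 did not (-0.95, adjusted p = 0.526). Of 4 measured genes of the primed epiblast list 2 fell and 0 rose, with a median log2 difference of -1.56. Sall2, a zinc finger factor, had 9.08, 8.9 and 9.0 on day 4, against 11.36, 11.45 and 11.87 on day 2 (-2.56 ± 0.23, adjusted p = 0.000299). Dnmt3b, the main de novo DNA methyltransferase of the epiblast, had 11.93, 11.12 and 11.23 on day 2, 10.57, 11.83 and 10.93 on day 3, and 9.09, 8.69 and 9.88 on day 4, a fall of 4.63-fold (adjusted p = 0.0113; 0.0535 without replicate 1 of day 2). Otx2, a homeobox factor of the epiblast, overlapped between the days (0.20, adjusted p = 0.906). Of 5 measured DNA methylation genes, Dnmt3l and Dnmt3b fell and 0 rose.

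Further large falls were of other kinds. Wt1, a zinc finger factor of kidney and gonad, had 11.44, 10.32 and 11.13 on day 2, 8.62, 8.9 and 9.07 on day 3, and 7.44, 7.66 and 7.58 on day 4, a fall of 10.6-fold (adjusted p = 0.000127). Uchl1, a ubiquitin hydrolase abundant in neurons, fell 11.3-fold (8.13, 9.3 and 9.31 on day 4, against 12.48, 12.55 and 12.2 on day 2, adjusted p = 0.000277). Its other probe, a clone listed as "Questionable" in its PCR check, fell by 3.59 (adjusted p = 0.000116). Mkrn1, a ubiquitin ligase, fell 7.4-fold (adjusted p = 0.000236); its second probe fell by 2.18 (adjusted p = 0.00639) and a dim one did not pass. Bmerb1 had 7.06, 7.55 and 7.45 on day 4, against 10.1, 10.47 and 9.81 on day 2 (-2.78 ± 0.25, adjusted p = 0.000299). For Uchl1, Mkrn1 and Bmerb1 the fall lay between day 4 and day 3 in the control channel (-3.34, -2.64 and -2.46, all past the test), while day 3 and day 2 did not differ past the test. The red steps from day 2 to day 3 and from day 3 to day 4 were -1.415 and -1.43 for Uchl1. They were -0.62 and -2.33 for Mkrn1 and -1.11 and -1.6 for Bmerb1.

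**Figure D2:**
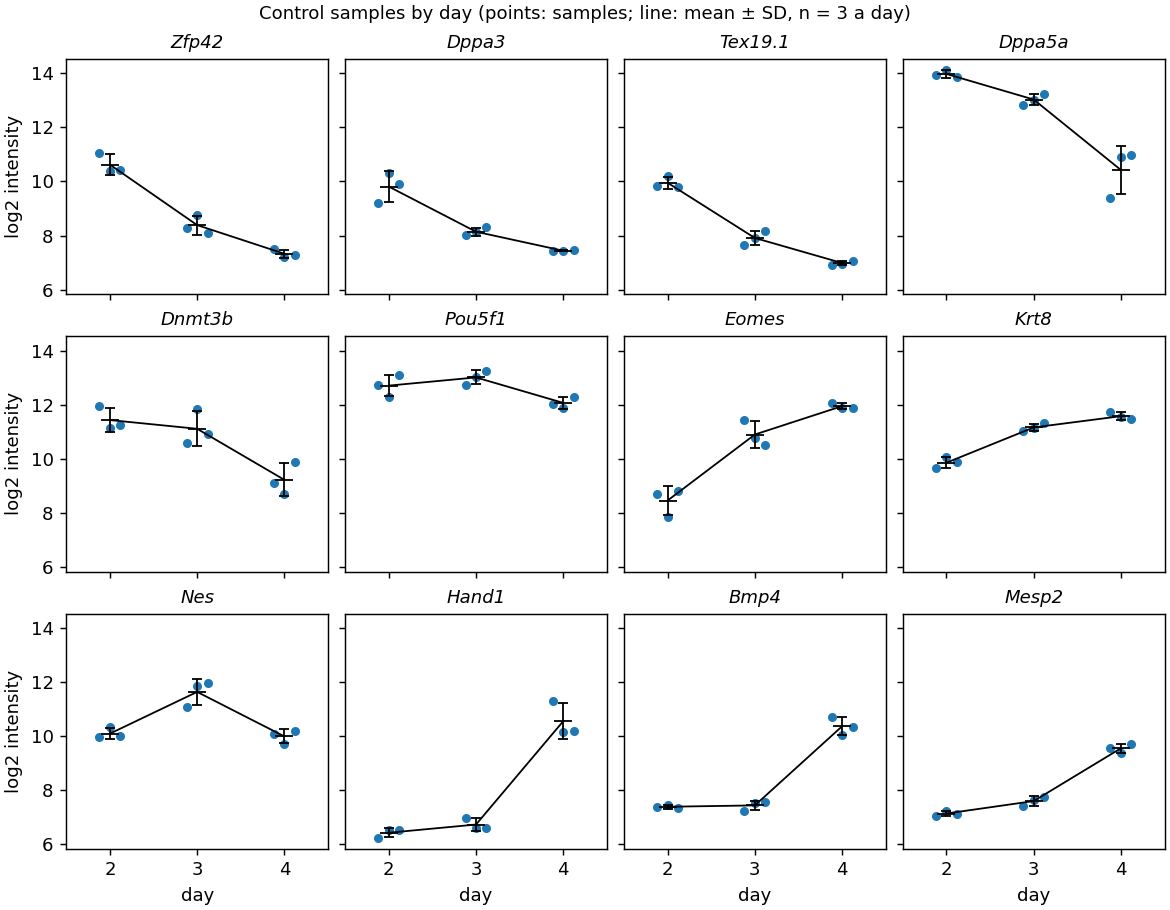
Log2 intensity of 12 genes in the control samples at day 2, day 3 and day 4 (points are samples, the line joins the day means, bars are SD, n = 3 a day). Zfp42, Dppa3 and Tex19.1 are lower by day 3, Eomes and Krt8 higher by day 3, Nes highest at day 3, and Hand1, Bmp4 and Mesp2 higher at day 4.

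Several genes of the primitive streak and of mesoderm rose, in the control channel Eomes already by day 3 and most others between day 3 and day 4. This timing depended on the channel. The red steps from day 2 to day 3 and from day 3 to day 4 were 1.45 and -0.75 for Mesp2 and 1.25 and 1.56 for Pdgfra. For Eomes they were 2.345 and -1.12. Eomes, a T-box factor needed for mesoderm and endoderm to leave the streak, had 8.7, 7.86 and 8.81 on day 2, 11.43, 10.77 and 10.49 on day 3, and 12.07, 11.88 and 11.88 on day 4. All day 3 values lay above all day 2 values (2.44 ± 0.30, adjusted p = 0.00714), and the whole rise was 11.3-fold (adjusted p = 0.000198). The step between day 4 and day 3 did not pass (1.05, adjusted p = 0.136). In the red channel Eomes differed by 1.23, and the difference between the channels passed (adjusted p = 2.68e-07). Mesp2, a bHLH factor of presomitic mesoderm, had 7.05, 7.23 and 7.1 on day 2, 7.4, 7.63 and 7.74 on day 3, and 9.54, 9.39 and 9.71 on day 4, a rise of 5.33-fold (adjusted p = 4.36e-05) of which 1.95 lay between day 4 and day 3 (adjusted p = 0.000249). A dimmer Mesp2 probe rose by 2.49 (adjusted p = 0.000267), while the other 4 did not pass, 3 of them below background on all arrays of both days. Pdgfra, a growth factor receptor of early mesoderm, was not above background on any day 2 or day 3 array and had 10.84, 9.81 and 9.96 on day 4, against 6.47, 6.3 and 6.57 on day 2, a rise of at least 13-fold (adjusted p = 8e-05).

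Not every gene of this group passed the test. T, which encodes Brachyury, a general mark of the streak, was below background in all 9 control samples by its single probe. Whether T changed could therefore not be told. Cer1, an antagonist of Nodal and BMP, differed by 0.12 (adjusted p = 0.945), and none of its 6 other probes passed. Of the 6 measured genes of the primitive streak and mesendoderm list, T among them, 3 rose and 0 fell, with a median log2 difference of 1.55. The median of the same list was 0.46 in the red channel. In the test of DOX minus control 4 of the 6 were lower, against 217 of all 5054 genes. Of 8 genes of the Nodal and activin pathway 1, Eomes, rose and 1, Gdf3, fell.

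Cardiac and lateral mesoderm genes rose at day 4 in the control channel. The red steps from day 2 to day 3 and from day 3 to day 4 were 2.13 and 0.97 for Gata4. They were 1.32 and 3.29 for Hand1, 0.63 and 2.725 for Bmp4, and 0.09 and 1.595 for Tbx20. For Gata4 the later timing thus holds for the green channel alone. Hand1, a bHLH factor of heart, lateral mesoderm and trophoblast, had 6.22, 6.53 and 6.51 on day 2, 6.98, 6.59 and 6.6 on day 3, and 11.3, 10.14 and 10.19 on day 4. It was below background on all arrays of days 2 and 3, and the rise was at least 17.2-fold (adjusted p = 8.39e-05). Gata4, a zinc finger factor of heart and endoderm, had 7.17, 7.76 and 7.23 on day 2, 7.18, 7.76 and 8.02 on day 3, and 10.65, 11.08 and 11.06 on day 4, a rise of 11.7-fold (adjusted p = 8.34e-05); its second, dim probe did not pass (0.14). Bmp4, the ligand that patterns ventral mesoderm, had 7.36, 7.46 and 7.32 on day 2, 7.22, 7.5 and 7.56 on day 3, and 10.71, 10.03 and 10.33 on day 4. The days 2 and 3 overlapped, and day 4 was 7.87-fold higher than day 2 (adjusted p = 4.36e-05). Tbx20, a T-box factor of the heart, was dim, with 7.38, 7.28 and 7.4 on day 4, against 6.72, 6.76 and 6.41 on day 2 (0.73, adjusted p = 0.0322, up to 0.114 without replicate 3 of day 4). Of the cardiac and lateral mesoderm list, 4 of 6 measured members rose and 0 fell, with a median log2 difference of 1.85.

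Members of the BMP and Wnt lists rose as well. For BMP pathway and target genes, 6 of 11 measured members rose and 1 fell, with a median log2 difference of 0.92, against 205 of 5054 genes rising overall. Besides Hand1 and Bmp4, Bmp5, another BMP ligand, had 9.31, 10.98 and 10.11 on day 4, against 7.29, 7.48 and 7.31 on day 2 (6.84-fold higher, adjusted p = 0.00215). Tbx3, a T-box factor, had 9.6, 9.57 and 9.53 on day 4, against 6.97, 6.96 and 6.77 on day 2 (at least 6.35-fold higher, adjusted p = 4.58e-05). Gata3, a zinc finger factor, had 9.68, 9.52 and 9.54 on day 4, against 7.41, 7.46 and 7.18 on day 2 (4.69-fold higher, adjusted p = 4.95e-05). The last was Id4, an inhibitor of bHLH factors (0.92, adjusted p = 0.0423); Id2, of the same family, fell (-1.08, adjusted p = 0.0348). For Wnt pathway and target genes, 4 of 10 measured members rose and 0 fell, with a median log2 difference of 0.54. Rspo3, a secreted enhancer of Wnt signals, had 8.06, 8.21 and 8.52 on day 2, 9.7, 8.44 and 9.4 on day 3, and 11.9, 12.59 and 12.22 on day 4, a rise of 15.7-fold (adjusted p = 0.000141). Dkk1, a secreted Wnt antagonist, rose 13.9-fold (10.8, 11.18 and 11.19 on day 4, against 7.37, 7.5 and 6.89 on day 2; adjusted p = 0.000108), and Apcdd1, another Wnt antagonist, rose 8.34-fold (adjusted p = 0.000583) by a clone listed as "No Product" in its PCR check. In both lists no member passed the test between day 3 and day 2 in the control channel. This count describes the green channel alone. In the red channel that step was 2.99 for Dkk1, 2.16 for Cdh2, 1.775 for Rspo3 and 1.11 for Apcdd1. Of the BMP list it was 1.43 for Gata3, 1.32 for Hand1, 1.31 for Tbx3, 0.93 for Bmp5 and 0.63 for Bmp4.

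Most measured genes listed for trophoblast rose. Of this list, 7 of 9 measured members rose and 0 fell, with a median log2 difference of 1.84, and the median in the red channel was 2.22. Its members are not particular to trophoblast: Hand1 and Gata3 are also in the mesoderm or BMP lists, Krt8 in the epithelial list, and Peg10 and Phlda2 in the imprinted list. Plac1, a placental gene, was below background at days 2 and 3 and had 9.18, 8.0 and 8.34 on day 4, against 6.74, 6.61 and 6.66 on day 2, a rise of at least 3.57-fold (adjusted p = 0.00338). Peg10, a gene derived from a retrotransposon, rose 4.33-fold (10.2, 10.62 and 10.23 on day 4, against 8.21, 8.48 and 8.02 on day 2; adjusted p = 0.00182), and Phlda2, which limits placental growth, rose 3.95-fold (13.39, 13.95 and 13.9 on day 4, against 11.81, 12.3 and 11.17 on day 2; adjusted p = 0.00505). Tfap2c, a factor of trophoblast and germ cells, rose in the control channel (0.99, adjusted p = 0.0327) and differed by -0.04 in the red channel. Cdx2 and Elf5 were not analysed here, since no probe was named for them.

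The direct test of timing set day 3 against the mean of days 2 and 4. Of 15064 probes 38 passed (0.252%), and of the genes 7 were higher at day 3 than that mean (0.139%) and 13 lower (0.257%). Among the lower were Nrp (-2.14, adjusted p = 0.000857), Hand1 (-1.76), Gata4 (-1.5), Bmp4 (-1.44), Gata3 (-0.95), Tbx3 (-0.97), Zeb1 and Gimap3. Nrp, Hand1 and Zeb1 were above background on no day 2 or day 3 array. Their level on both days has only an upper bound, so a change between those days could not be seen. Their rise above background lay between day 3 and day 4 in the control channel (4.258, 3.825 and 2.356, adjusted p = 7.02e-06, 0.0003 and 0.001 by limma). The red steps from day 2 to day 3 and from day 3 to day 4 were 2.335 and 2.57 for Nrp. They were 1.321 and 3.289 for Hand1, 0.04 and 2.236 for Zeb1, and 2.134 and 0.969 for Gata4. For Nrp and Gata4 the late rise thus holds for the green channel alone. With the red channel as control 34 probes passed the timing test. The early falls Zfp42, Dnmt3l, Tex19.1, Ooep and Hsf2bp did not pass this test (adjusted p = 0.487 for Zfp42 and adjusted p = 0.605 for Dnmt3l). Of the 18 named genes that passed it, 2, Nrp and Tcstv1, also passed in each of the 9 control-channel fits with 1 sample left out. The others reached adjusted p values of 0.0746 to 0.16, most often without replicate 3 of day 3. Only 1 of the 18 passed under all 20 alternatives, the red channel among them. The count of 38 probes was 5 to 21 without any 1 of the samples except replicates 1 of days 3 and 4.

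A few genes were highest or lowest at day 3 in the control channel. The red steps from day 2 to day 3 and from day 3 to day 4 had opposite signs for 4 of them. They were 1.33 and -2.055 for Nes, 0.43 and -1.57 for Plaat3, -1.14 and 1.3 for Gadd45g, and -0.96 and 1.82 for Cdkn1c. For Tcstv1 they were -2.09 and 0.04 and for Lgals1 1.45 and 0.23, so the return after day 3 of these genes holds for the green channel alone. Nes, which encodes the filament protein nestin of neural and other progenitors, had 9.96, 10.32 and 9.98 on day 2, 11.07, 11.84 and 11.97 on day 3, and 10.06, 9.69 and 10.2 on day 4. Day 3 lay above both other days by 1.59 ± 0.22 relative to their mean (adjusted p = 0.0292; up to 0.135 without replicate 3 of day 3), and the difference of day 4 from day 2 did not pass (-0.10, adjusted p = 0.905). Lgals1, a galectin, had 10.91, 10.98 and 11.12 on day 2, 12.07, 12.1 and 12.04 on day 3, and 11.6, 11.6 and 11.43 on day 4 (0.80, adjusted p = 0.0251), and its 2 other probes did not pass between day 3 and day 2. Plaat3, a phospholipase and acyltransferase, had 10.41, 9.64 and 10.32 on day 2, 11.37, 11.16 and 10.9 on day 3, and 9.37, 9.64 and 9.28 on day 4 (1.37, adjusted p = 0.0373). Lowest at day 3 were Tcstv1 (-1.72, adjusted p = 0.00167), Gadd45g, a stress-response gene (8.89, 9.07 and 9.11 on day 2, 7.3, 7.34 and 7.24 on day 3, and 7.95, 7.38 and 7.76 on day 4; -1.06, adjusted p = 0.0251), and Cdkn1c, an imprinted inhibitor of the cell cycle (10.55, 9.56 and 10.55 on day 2, 8.79, 9.17 and 8.9 on day 3, and 10.76, 11.04 and 11.41 on day 4; -1.69, adjusted p = 0.0373).

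Igf2 was the imprinted gene among the 15 largest rises. Igf2, the paternally expressed insulin-like growth factor, had 8.81, 9.2 and 8.63 on day 2, 8.88, 9.94 and 10.2 on day 3, and 12.81, 12.53 and 13.03 on day 4, a rise of 15-fold (adjusted p = 0.000171), and its other probe rose by 3.46 (adjusted p = 4.36e-05). Of the imprinted list, 4 of 17 measured members rose and 2 fell, against 4.06% and 4.23% of all genes, with a median log2 difference of 0.30. Sgce, a sarcoglycan, rose 4.29-fold (9.4, 10.2 and 10.11 on day 4, against 7.91, 7.97 and 7.52 on day 2; adjusted p = 0.00136). Gnas, the G protein alpha subunit, was lower by 1.57 (adjusted p = 0.0469), with adjusted p up to 0.157 without replicate 3 of day 2.

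Genes of adhesion and the cytoskeleton changed in both directions. Cdh2, N-cadherin, the cadherin of mesodermal and neural cells, had 8.0, 8.46 and 7.8 on day 2, 8.1, 8.34 and 8.74 on day 3, and 10.49, 11.13 and 10.74 on day 4, a rise of 6.49-fold (adjusted p = 0.000284). Its dimmer probe, a clone listed as "No Product", rose by 0.84 (adjusted p = 0.0285). Zeb1, a repressor of epithelial genes, was below background at days 2 and 3 and rose at least 4.48-fold (8.56, 9.29 and 8.75 on day 4, against 6.69, 6.38 and 6.94 on day 2; adjusted p = 0.000543), and Cd44, a hyaluronan receptor, rose 2.55-fold (adjusted p = 0.00842). Of 10 measured mesenchymal genes 4 rose and 0 fell, with a median log2 difference of 1.01. Vim, vimentin, differed by 1.23 ± 0.36 (adjusted p = 0.0919), by a clone also listed as "No Product". Vim passed under 4 of 20 alternatives, the red channel among them (2.03, adjusted p = 0.00404).

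Cdh1, E-cadherin, was below background in all control samples by both its probes, so its course was not analysed here. Of 16 epithelial genes 4 rose and 2 fell, against 205 and 214 of all 5054 genes. Krt8, a keratin of simple epithelia, had 9.64, 10.05 and 9.86 on day 2, 11.04, 11.13 and 11.31 on day 3, and 11.74, 11.53 and 11.45 on day 4. Its first step was 1.3 ± 0.15 (adjusted p = 0.00631) and its whole rise 3.3-fold (adjusted p = 0.000277). All 3 other probes rose, by 2.43, 2.1 and 3.15. Krt19 rose 4.06-fold (9.07, 10.57 and 10.37 on day 4, against 7.96, 7.94 and 8.04 on day 2; adjusted p = 0.00937), and Dsp, desmoplakin of the desmosome, rose 7.22-fold (11.52, 10.8 and 10.57 on day 4, against 8.53, 7.78 and 8.02 on day 2; adjusted p = 0.00119). Cldn7, a tight junction claudin, fell by 1.15 (adjusted p = 0.0196) and Epcam, an epithelial adhesion molecule, by 0.68 (adjusted p = 0.0295); neither held with each sample left out. In the red channel they differed by -0.46 and -0.36 and did not pass. Adjusted p reached 0.0765 for Cldn7 without replicate 2 of day 4 and 0.11 for Epcam without replicate 3 of day 4.

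Anxa2, an annexin that joins membranes and actin, had 8.14, 8.0 and 8.31 on day 2, 10.41, 11.04 and 10.22 on day 3, and 11.72, 11.41 and 11.94 on day 4, a rise of 11.6-fold (adjusted p = 4.92e-05), and its step between day 3 and day 2 passed (2.4, adjusted p = 0.00292). Anxa5 rose 3.27-fold (adjusted p = 0.011). Serpinh1, the collagen chaperone, rose 3.08-fold (12.17, 12.68 and 12.2 on day 4, against 10.45, 11.2 and 10.54 on day 2; adjusted p = 0.00736), while Spp1, osteopontin, and Col18a1, a basement membrane collagen, fell 3.76-fold and 3.75-fold (adjusted p = 0.00853 and 0.00121); the second, dim Col18a1 probe did not pass. Podxl, a sialomucin of the apical surface, had 12.72, 12.48 and 12.51 on day 4, against 9.16, 9.38 and 8.96 on day 2, a rise of 10.5-fold (adjusted p = 0.000131) in the control channel, with 2 further probes rising by 2.01 and 3.43 and a dim one at 0.07. In the red channel Podxl differed by 0.02.

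Further large rises were of other kinds. Hmga2, a chromatin protein of embryonic cells, had 10.27, 10.65 and 9.54 on day 2, 11.41, 11.86 and 12.07 on day 3, and 13.44, 14.03 and 14.02 on day 4 (12.8-fold higher, adjusted p = 0.00017). Its other probes rose by 2.87, by a clone listed as "No Product", and by 2.11. Vldlr, a lipoprotein and reelin receptor, rose too (10.81, 11.75 and 11.56 on day 4, against 7.91, 7.89 and 8.3 on day 2, 10.1-fold, adjusted p = 0.000317). Other Vldlr probes rose by 3.89, by a clone listed as "Multiple Bands", and by 3.62. Nrp, a symbol kept as the array gives it, was below background at days 2 and 3 and had 11.3, 10.93 and 11.2 on day 4, against 6.94, 6.94 and 6.84 on day 2, at least 18.9-fold higher (adjusted p = 3.72e-06). Gimap3, a GTPase, rose 8.97-fold (11.86, 11.34 and 11.58 on day 4, against 8.72, 8.09 and 8.47 on day 2; adjusted p = 0.00017); a second probe rose by 0.79 (adjusted p = 0.0491) and another did not pass. Greb1, a gene known for its response to estrogen, rose 8.95-fold (11.79, 12.22 and 11.95 on day 4, against 9.0, 8.44 and 9.03 on day 2; adjusted p = 0.000131). Ccnd2, cyclin D2, rose 6.4-fold in the control channel (adjusted p = 0.00335) and differed by -0.22 in the red channel. Its second probe rose by 1.29 (adjusted p = 0.011) and a dim one did not pass (-0.32).

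Markers of blood were low in the control channel, and 2 genes of endothelium fell. Of 3 measured blood markers, Gata1, Hbb-y and Hba-x, none was above background on any day 2 or day 3 array. At day 4 Hba-x was above background on 2 arrays, Gata1 on 1 and Hbb-y on 0. Their summed linear level was 349 to 416 at day 4 and 282 to 311 at day 2. Cd34, a surface protein of progenitors and endothelium, had 6.86, 6.87 and 6.95 on day 4, against 8.55, 8.16 and 8.58 on day 2, at least 2.9-fold lower at day 4 (adjusted p = 0.000322). Pecam1, an adhesion protein of endothelium also made by stem cells, had 8.55, 8.52 and 8.49 on day 2, 7.11, 7.13 and 7.08 on day 3, and 7.36, 7.17 and 7.08 on day 4, a fall of 2.49-fold (adjusted p = 0.000322); the red channel of Pecam1 differed by -0.17. Of the blood and endothelium list, 0 of 10 measured members rose and 2 fell, with a median log2 difference of 0.15. In the red channel the median of this list was 1.02, and Gata1, an erythroid factor, and Hbb-y, an embryonic globin, rose there (1.73, adjusted p = 0.00526, and 1.75, adjusted p = 0.000315). In the test of DOX minus control, which compares the changes from day 2 to day 4, 6 of the 10 members were higher, against 251 of all 5054 genes. The lack of a rise in this list thus holds for the green channel alone.

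Of 14 genes listed for visceral and parietal endoderm 2 rose and 3 fell, against 205 and 214 of all 5054 genes. Rhox5, a homeobox gene of the X chromosome, had 11.15, 10.87 and 11.13 on day 2, 10.07, 9.68 and 9.86 on day 3, and 8.52, 8.44 and 8.65 on day 4, a fall of 5.71-fold (adjusted p = 4.36e-05). Lrp2, megalin, had 9.16, 8.93 and 9.4 on day 2, 9.09, 9.08 and 9.27 on day 3, and 6.93, 6.67 and 6.85 on day 4, at least 5.07-fold lower (adjusted p = 5.31e-05). Dab2, an adaptor of endocytosis, differed by -0.82 (adjusted p = 0.036; up to 0.132 without replicate 1 of day 2), and by 0.004 in the red channel, and its other probe did not pass. Ttr, the thyroid hormone carrier, did not pass (-0.64, adjusted p = 0.158). The rising members were Gata4 and the dim Tdo2, a tryptophan-degrading enzyme (7.31, 7.23 and 6.96 on day 4, against 6.39, 6.38 and 6.17 on day 2; 0.86, adjusted p = 0.0105). Of 5 neuroectoderm genes 2 fell, Uchl1 and Tubb3, a neuronal tubulin (-1.05, adjusted p = 0.0462; up to 0.152 without replicate 3 of day 4), and 1, Irx3, rose (0.71, adjusted p = 0.0374; up to 0.137 without replicate 2 of day 4, and 0.38 in the red channel, not past the test). Of 3 measured genes of the definitive endoderm list 0 rose and 1, Epcam, fell; no probe was named for its defining markers Sox17, Foxa2, Cxcr4 and Hhex.

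Markers of feeder fibroblasts were low. Col1a2 was above background on 1 of 3 day 4 arrays and 0 of 3 day 2 arrays and did not pass (0.26, adjusted p = 0.458). Pdgfrb, a growth factor receptor of mesenchyme, was above background on all day 4 arrays and no day 2 array and rose at least 3.19-fold (8.61, 8.24 and 8.64 on day 4, against 6.58, 6.99 and 6.92 on day 2; adjusted p = 0.000583). The summed linear level of these 2 measured markers of 7 listed was 483 to 574 at day 4 and 227 to 284 at day 2, and the part of fibroblasts in the mesenchymal rises was not tested.

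Few genes of the basic machinery of the cell passed the test. None of 51 genes of oxidative phosphorylation, 60 of the proteasome and ubiquitin list, 36 of DNA replication, 35 translation factors and synthetases, 18 of ribosome biogenesis or 13 of the tricarboxylic acid cycle passed the test (0 of each, by limma). Over all genes 4.06% rose and 4.23% fell, so 0 calls among 13 or 18 genes say little. Of simulated 2-fold changes 26 of 67 were recovered, so smaller changes in these lists would mostly be missed. Their median log2 differences were 0.07, -0.01, -0.14, -0.04, -0.16 and 0.03, against -0.02 over all genes. Of 72 cytosolic ribosomal protein genes 2 fell, Rps7 and the testis-enriched Rpl39l (9.84, 9.55 and 9.65 on day 2, 7.88, 7.65 and 7.7 on day 3, and 8.0, 7.39 and 7.17 on day 4; adjusted p = 0.00042), and of 63 splicing and helicase genes 1, Ddx10, fell. Of 35 mitosis and cyclin genes only Ccnd2 passed.

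In metabolism, Ldha, lactate dehydrogenase A, had 14.44, 14.62 and 14.17 on day 4, against 12.79, 13.4 and 13.44 on day 2 (2.31-fold higher, adjusted p = 0.0105). The call was lost in the red channel (0.34, adjusted p = 0.544). Ldha was the 1 member past the test of 13 glycolysis genes, against 4.06% of all genes higher, so this count is no result about the list. The median of the list was 0.27 in the control channel and -0.25 in the red channel. Mt1, metallothionein, had 10.32, 9.38 and 9.46 on day 4, against 11.7, 11.86 and 12.38 on day 2 (4.79-fold lower, adjusted p = 0.0018). The glutathione transferases Gstm1 and Gsta4 also fell (by 1.52, adjusted p = 0.0356, and by 1.20, adjusted p = 0.0354), with adjusted p up to 0.118 without replicate 2 and 0.123 without replicate 3 of day 2. Of 2 other Gstm1 probes 1 differed the other way (0.44, adjusted p = 0.356) and 1 by -1.3 (adjusted p = 0.0643), and neither passed. Of 20 antioxidant genes 0 rose and 3 fell, against 4.06% and 4.23% of all genes. Of 84 solute carriers 2 rose and 5 fell, near the shares over all genes of 4.06% and 4.23%. Among the 5 were Slc1a3, a glutamate transporter (-2.06, adjusted p = 0.0142; 0.0667 without replicate 1 of day 2), and Slc35f2 (-2.04 ± 0.19, adjusted p = 0.000326), with Slc6a6, the taurine transporter, higher (1.63 ± 0.23, adjusted p = 0.00367; 0.72 in the red channel, adjusted p = 0.124). Fos, an immediate early factor, was below background at day 2 and rose at least 2.57-fold (adjusted p = 0.00299). The call was lost in the red channel (0.54, adjusted p = 0.185). Fos was the single member past the test of 10 FGF and ERK genes, against 4.06% of all genes higher, so this count too is no result about the list.

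**Figure D3:**
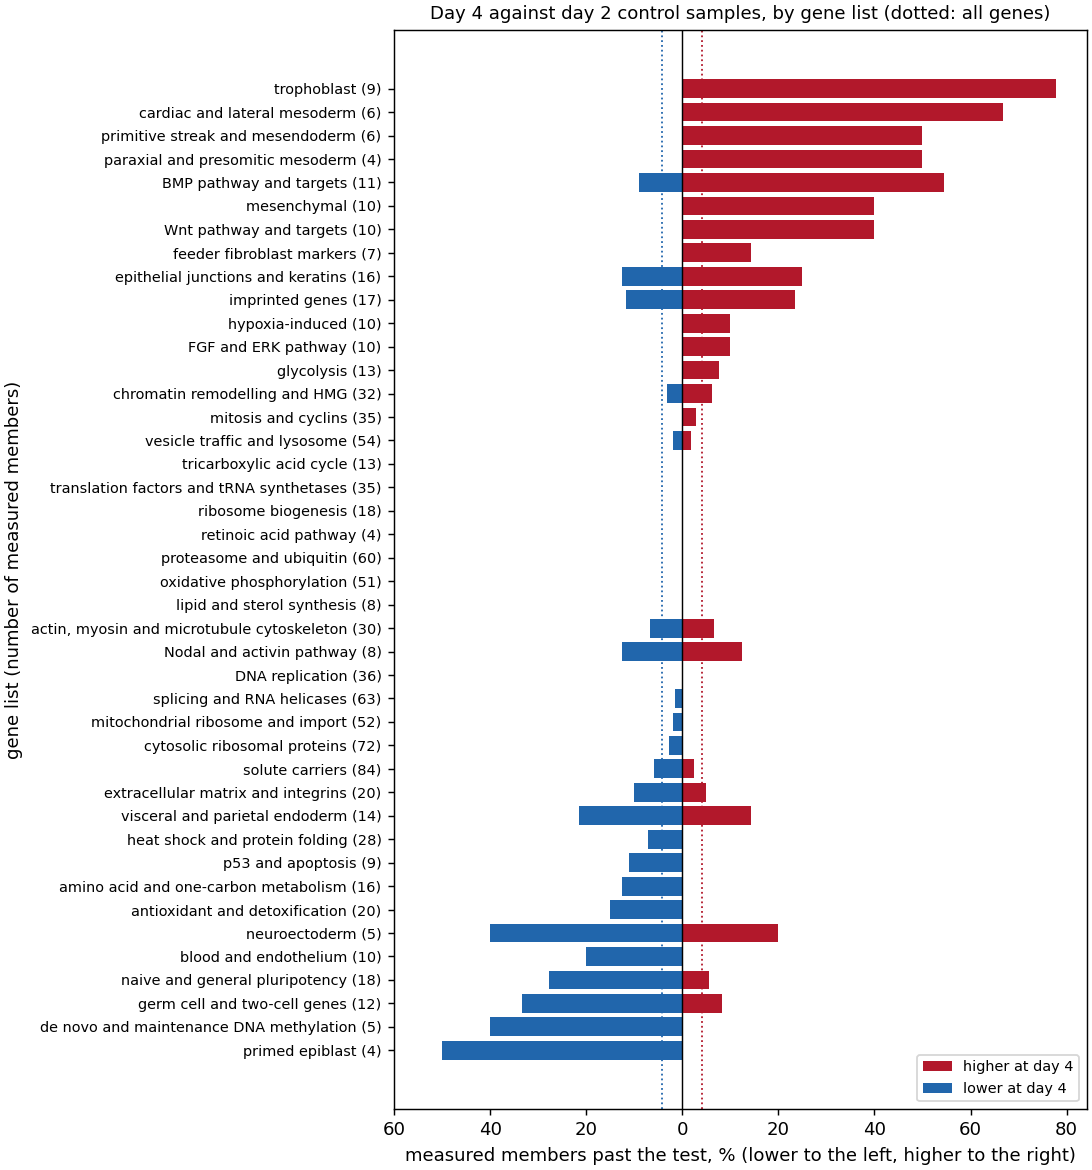
Share of the measured members of each gene list (rows, with the number measured; lists with 4 or more) past the test for day 4 against day 2 control samples, in percent, higher to the right and lower to the left; dotted lines mark the shares over all genes, 4.06% and 4.23%. Trophoblast, mesoderm, BMP and Wnt lists extend to the right, pluripotency, germ cell and primed epiblast lists to the left, and lists of basic machinery stay near 0.

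Many of the large differences rest on a single spot, those of Hand1, Nrp, Pdgfra, Eomes, Dnmt3l, Gdf3 and Zfp42 among them. Further cases follow. Rps7, a ribosomal protein, had 14.32, 14.42 and 12.01 on day 2, 6.64, 9.68 and 6.59 on day 3, and 6.4, 6.87 and 6.87 on day 4, a difference of -6.87 (adjusted p = 0.00192), while of the other ribosomal protein genes only Rpl39l passed. Dnaja2, a co-chaperone, had 9.0, 7.55 and 7.0 on day 4, against 14.44, 14.61 and 14.23 on day 2 (-6.58, adjusted p = 6.97e-05), yet its second probe, also bright, differed by -0.52 (adjusted p = 0.269). Adprh, a hydrolase of ADP-ribosylarginine (9.98, 7.29 and 6.59 on day 4, against 12.02, 12.68 and 12.33 on day 2), and Pitrm1, a mitochondrial protease (8.0, 7.94 and 6.88 on day 4, against 10.29, 10.26 and 9.93 on day 2), were each measured by 1 probe. Yif1b, a Golgi protein with 1 probe, had 6.61, 6.53 and 6.99 on day 2, 6.64, 10.28 and 11.54 on day 3, and 11.38, 11.53 and 11.6 on day 4, at least 27.8-fold higher at day 4 (adjusted p = 0.0227), and it did not pass in 6 of the 9 fits with 1 sample left out, with adjusted p up to 0.0864 without replicate 1 of day 2. In the red channel the spots of Rps7, Dnaja2, Adprh, Pitrm1 and Yif1b differed by -6.38, -6.01, -4.11, -1.67 and 4.62. Dnaja2, Adprh and Pitrm1 lay in block 21 of the 48 blocks in which the clones were printed, as did Serpinh1, which rose. Of the 293 probes of that block 7.17% passed, against 6.10% of all probes. The part of the block was not tested. Both channels are read from the same spots, and the part of the spots themselves was not tested.

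The change in the red channel was read from the same spots and arrays, so that calls shared by both channels are not independent of each other (intraspot correlation 0.827). Of the 205 genes that rose in the control channel 153 (74.6%) also rose in the red channel, and these were 61.9% of the 247 that rose there. Of the 214 that fell, 155 (72.4%) also fell in the red channel, 69.5% of its 223. These shared calls hold whichever channel is the control. Of the 95 named genes past the test, 19 kept their direction but not their call in the red channel, Adm, Cldn7, Epcam, Ezr, Fos, Gldc, Hmgb3, Hsph1, Irx3, Kit, Ldha, Mrpl49, Pecam1, Podxl, Sec11c, Slc39a1, Slc6a6, Smarca5 and Srm. A further 3, Ccnd2, Dab2 and Gadd45g, had the other sign there. Of the named genes not past the test in the control channel, Gata1, Hbb-y, Pou5f1, Vim, Nes and Plaat3 passed in the red channel. Nes differed there by -0.72 (adjusted p = 0.027) and Plaat3 by -1.14 (adjusted p = 0.0139). The test of the difference itself, DOX minus control, passed for 1002 of 15064 probes (6.65%). Without replicates 1 and 3 of day 2, each in turn, 632 and 645 passed, and without replicates 2 and 3 of day 4 660 and 590. It passed for 78 of the 205 risen and 40 of the 214 fallen genes, against 468 of all 5054 genes. The risen and fallen genes were chosen by their control change, a term of this difference, so their counts cannot be set against that share. For Podxl, Ccnd2, Eomes and Mesp2 the rise was smaller in the DOX samples than in the controls, by -3.38, -2.9, -2.26 and -1.72 (adjusted p = 3.3e-10, 9.21e-08, 2.68e-07 and 1.66e-06). For Tdo2, Plac1 and Cd44 it was larger, by 1.77, 1.33 and 1.28 (adjusted p = 1.03e-06, 1.16e-05 and 1.06e-05). For the early falls Tex19.1, Ooep and Hsf2bp the change in the DOX samples was -2.94, -3.05 and -3.4, against -2.97, -3.04 and -3.45 in the controls. For Morc1 and Dppa3 it was -2.96 and -2.24 in the DOX samples, against -3.04 and -2.37 in the controls. None of these 5 differences passed (adjusted p = 0.623 to 0.991). Other genes lower by day 3 did differ past the same limma test. Zfp42 changed by -2.9 in the DOX samples, against -3.3 in the controls (adjusted p = 0.0369), and Wt1 by -2.855, against -3.4 (adjusted p = 0.0102). Pecam1 and Gadd45g differed too (adjusted p = 0.000327 and 7.36e-05). Dnmt3l and Gdf3 did not (adjusted p = 0.0753 and 0.34). By the dyes in the labels, DOX and control change places in this paragraph.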

How the data were processed

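RNA of control and DOX embryoid bodies, amplified linearly for 1 round, was hybridised to 9 spotted 2-colour arrays. The deposited intensity values are the median foreground minus background of a spot, per the file headers. The signal-to-noise score and the spot flags of each spot are also as deposited by the authors, as GenePix wrote them. The authors' value table holds a further intensity, scaled within each day; it matched 1 channel of 1 array for all 18 samples and gave the channel of each. A further 45 per-array columns of scaled values and folds were not used. Scanner settings are not given in the sources used here.

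Spots flagged at -75 or below were left out, leaving 15064 probes. Background was corrected by normexp (offset 50), arrays were normalized by loess (span 0.3) and by Aquantile between arrays, and log2 values of the control channel were fitted in limma 3.58.1 (R 4.3.3) with a term for each day and 6 residual degrees of freedom, with p-values adjusted by Benjamini-Hochberg over all probes. Of several probes of a gene the brightest was taken. Named were the 15 largest rises and falls among genes past the test whose days do not overlap and whose higher day is above background on all arrays, up to 6 genes each way for day 3, up to 5 members past the test of each of 45 gene lists, and a panel of markers. The members and lists were chosen with earlier results of these data known. On simulated data for day 4 against day 2 (15064 probes), 61 of 66 probes changed 4-fold and 26 of 67 changed 2-fold were recovered, with 3 false calls. Alternatives changed the channel, normalization, background, filters, samples and spread.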

Additional observations from a re-analysis of the deposited data

Results flagged for a closer look

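The change between day 4 and day 2 differed between the DOX and the control samples of the same arrays for 52 of the 108 named genes. This was by the limma test of the difference itself at an adjusted p under 0.05, which 468 of all 5054 genes passed. Most named genes were chosen by their change in the controls, which is a term of this difference, so the shares cannot be compared. The values that follow are that difference in log2 units, DOX minus control, and their sign turns if the labels' dyes are right. Among genes with a positive difference in the controls, the value was lower in the DOX samples for Adm -0.40, Ccnd2 -2.9, Cdh2 -0.71, Eomes -2.26, Fos -0.82, Gimap3 -1.03, Greb1 -0.70, Hmga2 -1.12, Hmgb3 -0.51, Ldha -0.86, Mesp2 -1.72, Otx2 -1.4, Pdgfra -0.94, Phlda2 -0.61, Podxl -3.38, Rspo3 -0.87, Slc6a6 -0.91, Tdgf1 -2.35 and Vldlr -0.68. It was higher in the DOX samples for Bmp5 0.70, Cd44 1.28, Gata1 1.42, Gata3 0.94, Hbb-y 1.56, Igf2 0.95, Krt19 0.59, Krt8 0.69, Lgals1 1.14, Pdgfrb 0.60, Plac1 1.33, Tbx20 0.96, Tdo2 1.77 and Vim 0.81. Among genes with a negative difference in the controls, the change in the DOX samples was higher for Cldn7 0.69, Dab2 0.83, Dnaja2 0.57, Dppa5a 0.68, Gadd45g 1.5, Mt1 0.94, Pecam1 1.15, Pitrm1 0.88, Rps7 0.49, Sall2 0.73, Slc39a1 1.35, Spp1 0.63, Ttr 1.56, Uchl1 0.66, Wt1 0.55 and Zfp42 0.40. It was lower still for Nes -0.62, Plaat3 -0.44 and Pou5f1 -1.69. For Podxl the change was 0.02 in DOX samples and 3.4 in controls, and for Hbb-y, an embryonic globin, it was 1.75 in DOX samples and 0.19 in controls, where the probe was not above background. The signs of the change were opposite in the DOX samples and the controls for Ccnd2 (-0.22 and 2.68), Tdgf1 (-1.66 and 0.69), Otx2 (-1.2 and 0.20), Ttr (0.92 and -0.64), Gadd45g (0.17 and -1.33) and Dab2 (0.004 and -0.82).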

How the results depend on the processing

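Of the 95 named genes past the test between day 4 and day 2, 61 kept their call in every alternative run for them (21, or 20 for Apcdd1 and Tdo2), and 71 in each of the 9 fits with 1 sample left out. Leaving out 1 sample gave 529 to 1046 probes for day 4 against day 2 (257 to 542 higher and 264 to 539 lower), 48 to 112 for day 3 against day 2, 174 to 363 for day 4 against day 3, 5 to 46 for day 3 against the mean of days 2 and 4, and 590 to 1157 for DOX minus control. For day 3 against day 2 the count was 63 with only the 6 samples of both days, 185 with an intensity trend and robust spread and 245 with both channels in 1 fit. For day 4 against day 3 it was 186, 499 and 632 under the same settings. For day 3 against the mean of days 2 and 4 it was 67 with values floored at 10, 62 with a filter on the signal-to-noise ratio, 103 with the trend and 158 with both channels. The replicate block gave 792 probes for day 4 against day 2, 67 for day 3 against day 2 and 13 for day 3 against that mean; same-numbered samples deviated together with r from -0.272 to 0.432, so the numbers do not pair the samples. The sign turned with the red channel as control for Ccnd2 (-0.22), Dab2 (0.004), Gadd45g (0.17), Otx2 (-1.2), Tdgf1 (-1.66) and Ttr (0.92), and with values floored at 10 for T (-0.013). Leaving out 1 sample gave -0.161 to 0.394 for Cer1, -0.209 to 0.043 for Nes, -0.071 to 0.508 for Otx2 and -0.043 to 0.111 for T, none of which passed. The medians of 10 of 45 lists had the other sign in the red channel. The cause of these shifts was not tested. With 3 samples a day, simulated 1.5-fold changes were recovered for 2 of 67 probes, so small changes were mostly not detectable.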
